A study of Homo sapiens with 8 samples.

Results

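The complement genes C1R, C1S, SERPING1, C3, CFB, CFI, CD46, CD55 and CD59 were compared between xenograft tumours of H2122, an established cell line from a human lung cancer, and tumours of the same line with a SMARCA4 knockout. SMARCA4 encodes one of the motor subunits that drive SWI/SNF complexes to move nucleosomes. The genes were chosen by symbol, and all 9 were found among the 59050 gene rows of each count table. There were 4 tumours with the genotype given as WT (called parental here) and 4 with SMARCA4 KO, and all 8 came from animals given vehicle only. The labels do not give the host strain or sex, the tumour age, or whether the knockout cells were 1 clone or a pool. Nothing states that tumours of a group came from separate cell preparations, so the p-values measure the spread between these tumours.

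Complement is a cascade of plasma proteins that tags cells for uptake and can puncture their membranes. It is started by the C1 complex on bound antibody (the classical pathway), by lectins on sugars, or by spontaneous turnover of C3 that factor B amplifies (the alternative pathway), and all routes meet at the cleavage of C3. Cells protect themselves with membrane proteins that break up the enzymes of the cascade or block the membrane pore, and soluble inhibitors do the same in plasma. The liver makes most plasma complement, while epithelial cells, fibroblasts and macrophages make parts of it locally, and inflammatory cytokines induce several of these genes.

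Libraries held 19785922 to 23191698 gene counts, and the ranges of the groups overlapped. SMARCA4 was at 220, 229, 198 and 235 CPM (counts relative to the TMM-scaled library size) in parental replicates 1 to 4 and at 29.6, 26.2, 22.3 and 31.1 CPM in knockout replicates 1 to 4, with no knockout value near a parental value. The 6 epithelial markers checked were present in all libraries, with sums of 5756 to 6929 CPM in parental and 4634 to 6237 CPM in knockout tumours. Of these, KRT7 (log2 change of knockout over parental -0.71) and KRT19 (-1.01) fell (edgeR adjusted p = 0.000333 and 8.49e-05). Of 4 lung lineage markers, NKX2-1 and SFTPC had no count in any of the 8 libraries, and a count of 0 allows up to 3 in each. The files do not separate human from mouse reads, so transcripts of host cells that resemble human ones can be counted. In whole tumours, fewer cells of a type and less RNA per cell cannot be told apart.

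In outline, the membrane regulators CD46 and CD55 rose in knockout tumours, the alternative-pathway gene CFB and the inhibitor gene CFI fell, and C3 fell by a smaller amount that depended on which tumours were included. C1S rose, with overlapping groups and a call lost in 5 of the 8 fits that left out 1 tumour, while its partner C1R did not differ detectably. Of the 9 members, 8 passed the filter on low counts. Of those 8, 3 were called higher and 3 lower at an edgeR quasi-likelihood adjusted p under 0.05, against 27.0% of 16219 genes called in either direction (13.0% higher and 14.1% lower). The median log2 change of the 8 was -0.018, against 0.0035 over all genes tested. The members and the gene lists below were chosen with earlier results of these data known. Their shares of calls are therefore not those of an independent choice of genes.

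**Figure D1:**
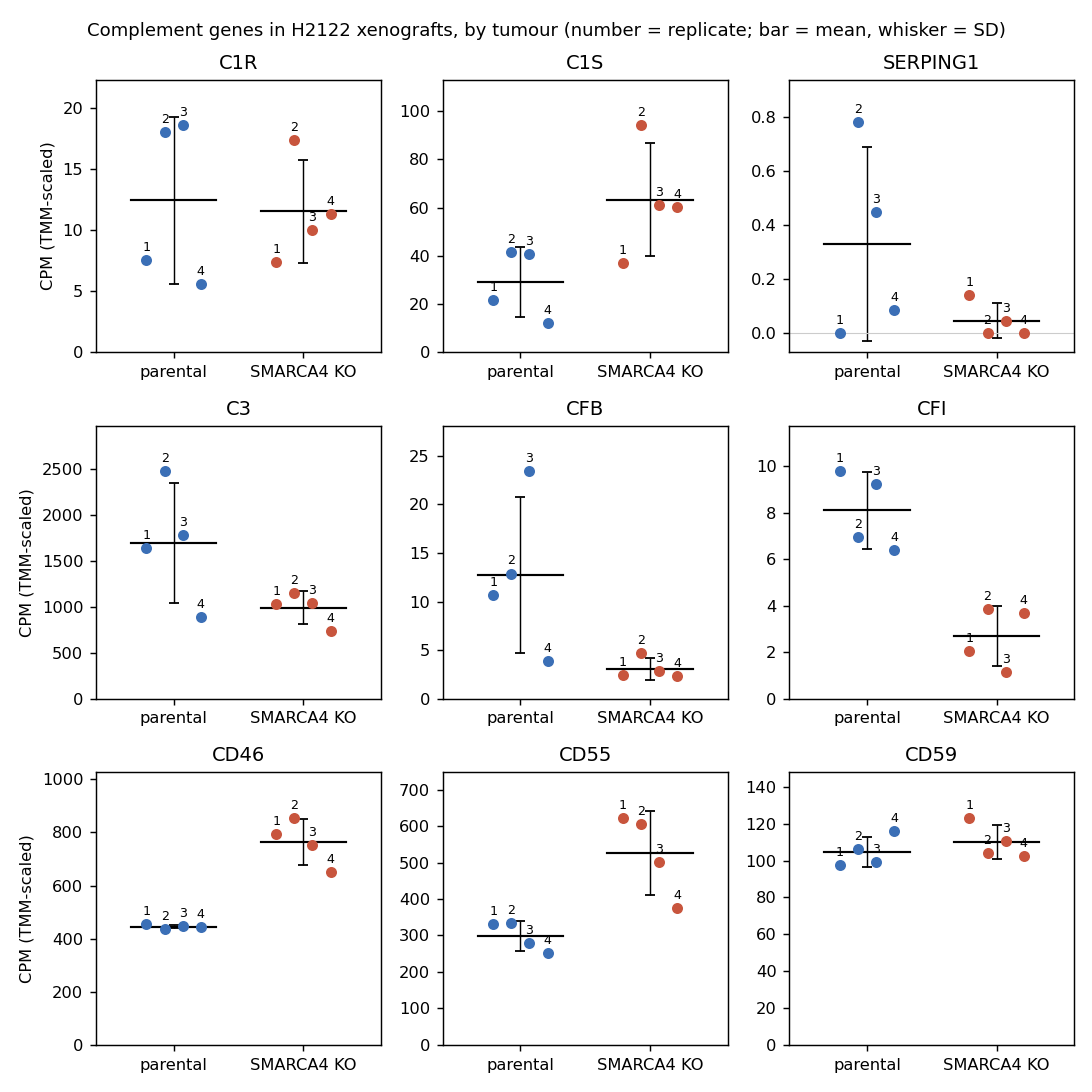
Each panel shows 1 gene, with the TMM-scaled CPM of each tumour as a point (blue parental, red SMARCA4 knockout, numbered by replicate), the group mean as a bar and the SD as a whisker. CD46, CD55 and CFI have no overlap between the groups, whereas C3, CFB and C1S overlap through parental replicate 4 or knockout replicate 1.

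Levels can be compared between genes per length of exon. C3 was the most abundant member in both groups, at 203 ± 78.0 CPM per kilobase of exon before and 119 ± 21.2 after knockout (SD over 4 tumours). CD46 (51.2 ± 0.774) and CD55 (50.6 ± 6.81) followed in parental tumours, with overlapping ranges, and CD59 was at 10.1 ± 0.799 CPM per kilobase. Below them C1S, CFB, C1R and CFI lay at 4.51 ± 2.23, 2.55 ± 1.62, 2.11 ± 1.16 and 1.66 ± 0.340 CPM per kilobase, each overlapping its neighbour in the order. In knockout tumours the ranges of C3 (88.8 to 139), CD55 (63.5 to 105) and CD46 (74.9 to 98.2) overlapped, whereas in parental tumours C3 was above both membrane regulators. C1S (9.77 ± 3.62) then overlapped CD59 (10.6 ± 0.906), and CFB (0.613 ± 0.220) and CFI (0.552 ± 0.267) were the lowest of the members tested. The lengths include exon bases shared with other genes, 45.0% for CFB, 32.0% for CFI and 11.4% for C1R. Reads there may be dropped, so these levels can be understated and the order of these 3 genes is uncertain.

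**Figure D2:**
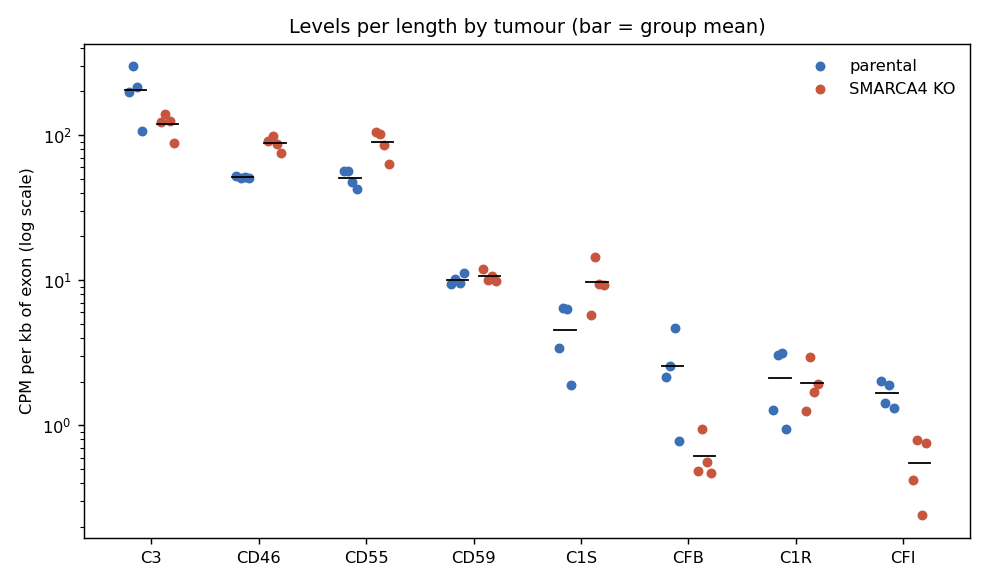
Points give CPM per kilobase of exon for each tumour on a log axis, with the group mean as a bar, for the 8 members that passed the filter; SERPING1, with counts of 0 in 3 libraries, is left out. The parental points of C3 lie above all parental points of CD46 and CD55, while in knockout tumours the 3 genes overlap.

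C1R and C1S encode the serine proteases of the C1 complex: C1r activates C1s, which then cleaves C4 and C2. The genes lie 9166 bases apart on chromosome 12 (C1R, ENSG00000159403, 7080199 to 7092607, minus strand; C1S, ENSG00000182326, 6988259 to 7071032, plus strand; GENCODE 29 on GRCh38). C1S was at 21.9, 41.6, 40.6 and 12.3 CPM in parental replicates 1 to 4 and at 37.1, 94.1, 61.1 and 60.3 CPM in knockout replicates 1 to 4. Knockout replicates 2 to 4 were above every parental tumour, and knockout replicate 1 was within the parental range. The log2 change of C1S was 1.12 (SE 0.36, edgeR adjusted p = 0.0394). The call was lost without parental replicate 1 (1.00, adjusted p = 0.105), parental replicate 4 (0.86, 0.0582), knockout replicate 2 (0.86, 0.122), knockout replicate 3 (1.13, 0.0716) or knockout replicate 4 (1.14, 0.0688), and by DESeq2 (1.11, 0.0596).

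C1R was at 7.56, 18.0, 18.6 and 5.57 CPM in parental replicates 1 to 4 and at 7.43, 17.4, 10.0 and 11.3 CPM in knockout replicates 1 to 4. The knockout range lay inside the parental range. Its log2 change was -0.11 (SE 0.38, edgeR adjusted p = 0.864), and the sign turned without parental replicate 2 (0.12), parental replicate 3 (0.15) or knockout replicate 1 (0.055). C1R shares 11.4% of its exon bases with C1RL, so reads there can be lost as ambiguous.

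The balance between the 2 proteases separated the groups although neither gene alone did so. The ratio of C1S to C1R was 2.90, 2.31, 2.19 and 2.21 for the parental tumours 1 to 4. For the knockout tumours 1 to 4 it was 5.00, 5.42, 6.09 and 5.33. The groups did not overlap, and the ratio was 2.28-fold higher after knockout on the geometric mean (p = 0.0286 by an exact two-sided permutation test, the smallest that 4 against 4 tumours can give). It stayed between 2.20-fold and 2.44-fold when any 1 tumour was left out. This ratio was chosen after the values of the 2 genes were seen. Within each group C1S and C1R were high in the same tumours: both were highest in knockout replicate 2 and lowest in knockout replicate 1 and parental replicate 4.

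**Figure D3:**
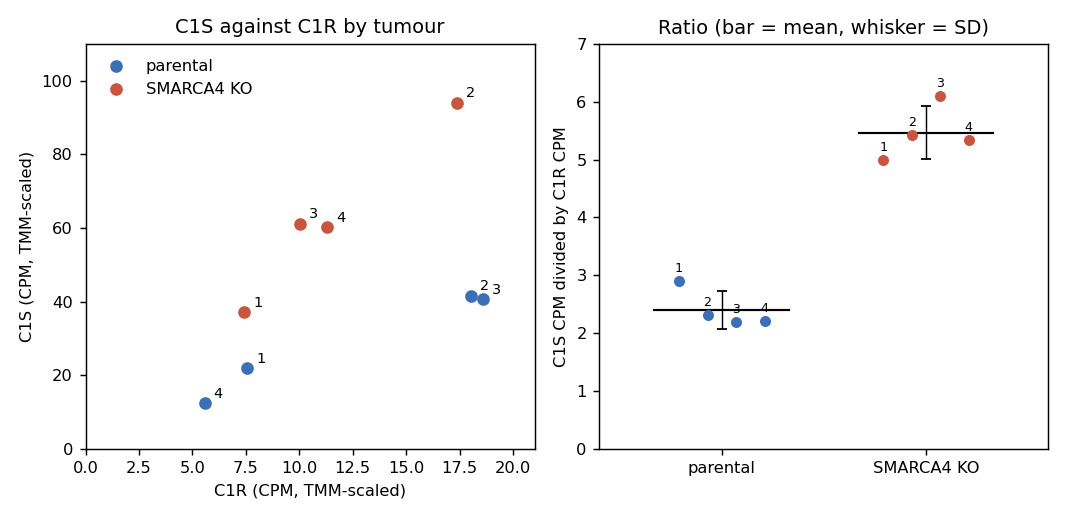
The left panel plots C1S against C1R in TMM-scaled CPM and the right panel their ratio, with each tumour as a numbered point, the mean as a bar and the SD as a whisker. The 4 knockout tumours lie on a steeper line than the 4 parental tumours, with ratios of 5.00 to 6.09 against 2.19 to 2.90.

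SERPING1 encodes C1 inhibitor, the serpin that inactivates C1r and C1s (chromosome 11, 57597387 to 57614853, plus strand). Its counts were 0, 16, 10 and 2 for the parental tumours 1 to 4. The knockout tumours 1 to 4 gave 3, 0, 1 and 0, too few for the filter. Most of its counts came from parental replicates 2 and 3. The pooled ratio of parental to knockout was 6.92 (95% exact interval 2.42 to 27.2, counting error only), but the CPM of the tumours overlapped (exact two-sided permutation p = 0.257). Without parental replicate 2 the ratio was 3.90 (1.18 to 16.6), and without knockout replicate 1 it was 20.7 (3.42 to 846), from 1 knockout count. No library held more than 16 counts of SERPING1.

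C3, factor B and factor I form the core of the amplification loop: C3b binds factor B to make the alternative-pathway convertase, and factor I is the protease that cuts C3b and stops it. CFB (ENSG00000243649, chromosome 6, 31945650 to 31952084, plus strand) was at 10.7, 12.9, 23.4 and 3.91 CPM in parental replicates 1 to 4. In knockout replicates 1 to 4 it was at 2.43, 4.68, 2.80 and 2.33 CPM. All knockout tumours were below parental replicates 1 to 3, and knockout replicate 2 was above parental replicate 4. CFB fell by 2.06 on the log2 scale (SE 0.45, edgeR adjusted p = 0.00562), a fitted 4.16-fold lower level. The fall was 1.58 or more in size without any 1 tumour (adjusted p at most 0.0216). In GENCODE 29, 45.0% of the exon bases of CFB are shared with the gene AL645922.1, which had 0 counts in all libraries, so CFB reads in those bases may have been dropped as ambiguous.

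CFI (ENSG00000205403, chromosome 4, 109740694 to 109802179, minus strand) was at 9.79, 6.98, 9.25 and 6.42 CPM in parental replicates 1 to 4. In knockout replicates 1 to 4 it was at 2.06, 3.85, 1.17 and 3.69 CPM. The groups did not overlap. CFI fell by 1.59 on the log2 scale (SE 0.32, edgeR adjusted p = 0.00327), and by 1.34 to 1.81 when any 1 tumour was left out (adjusted p at most 0.0136). The tumours ranked differently for CFI than for CFB: parental replicate 3 had the highest CFB, and parental replicate 1 the highest CFI. CFI shares 32.0% of its exon bases with AC126283.2, which also had 0 counts.

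C3 (ENSG00000125730, chromosome 19, 6677704 to 6730562, minus strand) was at 1638, 2473, 1776 and 889 CPM in parental replicates 1 to 4. In knockout replicates 1 to 4 it was at 1028, 1155, 1041 and 740 CPM. Parental replicates 1 to 3 were above all knockout tumours, and parental replicate 4 was below 3 of the 4. C3 fell by 0.77 on the log2 scale (SE 0.25, edgeR adjusted p = 0.0404). Of the 8 fits that left out 1 tumour, the call was kept only without parental replicate 4 (-0.99, adjusted p = 0.00181). It was lost without parental replicate 1 (-0.80, 0.0684), parental replicate 2 (-0.54, 0.0906), parental replicate 3 (-0.75, 0.0751), knockout replicate 1 (-0.79, 0.0799), knockout replicate 2 (-0.85, 0.0563), knockout replicate 3 (-0.80, 0.0770) or knockout replicate 4 (-0.65, 0.109), and by limma-voom (-0.70, 0.0654).

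C3 remained a major transcript in both groups. Its share of gene counts was 0.160%, 0.249%, 0.182% and 0.0902% for the parental tumours 1 to 4. For the knockout tumours 1 to 4 the share was 0.100%, 0.115%, 0.103% and 0.0745%. The ratio of C3 to CFB in CPM was 75.9 to 227 in parental and 247 to 423 in knockout tumours, without overlap. This ratio was set up with the members' counts known and is given without a test.

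The membrane regulators act on the cell that carries them. CD46 (membrane cofactor protein) lets factor I cut C3b and C4b, CD55 (decay-accelerating factor) takes C3 convertases apart, and CD59 blocks assembly of the membrane attack complex. CD46 (ENSG00000117335, chromosome 1, 207752057 to 207795513, plus strand) was at 454, 438, 447 and 443 CPM in parental replicates 1 to 4. In knockout replicates 1 to 4 it was at 794, 856, 751 and 652 CPM, so every knockout tumour was above every parental tumour. CD46 rose by a log2 change of 0.78 (SE 0.093, edgeR adjusted p = 0.000113), a fitted 1.71-fold higher level. Its parental values were the closest together of any member, with a coefficient of variation of 1.51%, against 11.2% in knockout tumours.

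CD55 (ENSG00000196352, chromosome 1, 207321376 to 207386804, plus strand) was at 331, 333, 278 and 252 CPM in parental replicates 1 to 4. In knockout replicates 1 to 4 it was at 623, 605, 501 and 375 CPM, again without overlap. CD55 rose by a log2 change of 0.82 (SE 0.16, edgeR adjusted p = 0.00270), or 1.76-fold. Knockout replicate 4 was the lowest knockout tumour for both genes. CD55 and CD46 lie 365252 bases apart in the chromosome 1 cluster of complement regulators, and their CPM ratio did not separate the groups (0.568 to 0.760 in parental and 0.576 to 0.784 in knockout tumours). Leaving out any 1 tumour kept both calls, with log2 changes of 0.72 to 0.85 for CD46 and 0.73 to 0.95 for CD55.

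CD59 (ENSG00000085063, chromosome 11, 33703010 to 33736491, minus strand) was at 97.7, 106, 99.1 and 116 CPM in parental replicates 1 to 4. In knockout replicates 1 to 4 it was at 123, 104, 110 and 103 CPM, within almost the same range. Its log2 change was 0.073 (SE 0.090, edgeR adjusted p = 0.594). Groups without overlap were therefore found for CFI, CD46 and CD55, or 3 of the 8 members tested, against 29.3% of all genes tested.

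Promoter sequence is shown for members whose levels moved together or apart: CD46 and CD55, which rose, and CFB and CFI, which fell. The windows are from RefSeq on GRCh38.p14 and run from 250 bases before to 50 bases after a transcript start, 5′ to 3′ on the strand of the gene. A window was found for 6 of the 9 members (C1R, CFB, CFI, CD46, CD55 and CD59), and C3, C1S and SERPING1 were not matched. Capitals mark matches on either strand to motifs of factors known to induce complement genes. These are the NF-kappaB consensus, the interferon-stimulated response motif, the gamma-activated site TTCNNNGAA, the C/EBP motif TTGCNNAA and the AP-1 motif TGANTCA.
CFB, chr6:31945845-31946144, plus strand: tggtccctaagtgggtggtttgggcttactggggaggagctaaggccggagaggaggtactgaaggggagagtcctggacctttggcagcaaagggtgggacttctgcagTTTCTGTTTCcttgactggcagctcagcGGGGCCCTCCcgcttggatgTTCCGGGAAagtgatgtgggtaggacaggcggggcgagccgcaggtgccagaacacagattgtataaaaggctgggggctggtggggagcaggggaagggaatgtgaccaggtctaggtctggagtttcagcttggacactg
CFI, chr4:109801950-109802249, minus strand: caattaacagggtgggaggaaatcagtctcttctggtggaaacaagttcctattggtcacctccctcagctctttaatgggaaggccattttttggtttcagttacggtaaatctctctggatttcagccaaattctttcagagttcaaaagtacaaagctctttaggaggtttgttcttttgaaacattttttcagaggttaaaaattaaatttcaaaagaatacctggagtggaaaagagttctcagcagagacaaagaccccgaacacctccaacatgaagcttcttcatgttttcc
CD46, chr1:207751788-207752087, plus strand: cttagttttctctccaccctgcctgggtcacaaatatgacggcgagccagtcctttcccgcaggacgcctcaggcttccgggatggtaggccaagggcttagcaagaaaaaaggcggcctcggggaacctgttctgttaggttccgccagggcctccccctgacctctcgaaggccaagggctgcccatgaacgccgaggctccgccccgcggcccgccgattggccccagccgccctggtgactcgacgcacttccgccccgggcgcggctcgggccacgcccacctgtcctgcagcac
CD55, chr1:207321428-207321727, plus strand: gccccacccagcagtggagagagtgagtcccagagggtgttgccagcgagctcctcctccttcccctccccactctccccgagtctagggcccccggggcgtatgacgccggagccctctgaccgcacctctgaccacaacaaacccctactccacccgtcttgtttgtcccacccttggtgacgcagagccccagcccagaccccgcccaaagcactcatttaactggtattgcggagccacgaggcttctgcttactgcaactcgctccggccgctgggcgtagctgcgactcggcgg

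The CFB window held 3 matches: the interferon-stimulated response motif at bases 111 to 120 on the reverse strand, the NF-kappaB consensus at 139 to 148, and the gamma-activated site at 159 to 167, counted from 1 at the 5′ end of the window. The windows of CFI, CD46 and CD55 held none of the 5 motifs, which says only that these letters are not in these windows. C1R and CD59, which were not called, had matches too. The 2 windows of C1R held 2 matches to the C/EBP motif and 1 to the gamma-activated site. The 4 windows of CD59 held 1 gamma-activated site, found in 2 overlapping windows, 2 C/EBP matches and 3 AP-1 matches. Among 35114 windows of the same length over all genes, 3.57% held the interferon-stimulated response motif, 11.3% the NF-kappaB consensus, 7.66% the gamma-activated site, 10.5% the C/EBP motif and 7.71% the AP-1 motif. The matches describe sequence only and no binding was measured.

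The rest of the complement system was read from a list of 49 further genes. Of these, 19 passed the filter, with 4 called higher and 6 lower, against 13.0% and 14.1% of all genes tested. The median log2 change was -0.038, against 0.0035 over all genes tested. Of 4 genes tested from the start of the classical and lectin pathways, 2 were called lower (14.1% of all genes) and none higher. C2, the partner of C4 in the classical convertase and the neighbour of CFB, was at 1.36 to 4.20 CPM in parental and 0.187 to 0.607 CPM in knockout tumours and fell by 2.66 on the log2 scale (SE 0.46, edgeR adjusted p = 0.00143). C4B fell by 1.56 (adjusted p = 0.0202), and its call was lost without knockout replicate 1 (-1.55, 0.0514) or knockout replicate 3 (-1.49, 0.0568), or with parental replicates 2 and 3 both left out (-1.04, 0.0597). C4A and C4B are near-identical copies whose reads cannot be split with certainty. C4A had 67 parental and 14 knockout counts and was not tested. C1QA, C1QB and C1QC encode the recognition subunits of C1, made mainly by macrophages. They had 53, 54 and 62 parental and 11, 8 and 24 knockout counts and were not tested. Nearly all parental counts came from replicates 2 (29, 35 and 41) and 3 (23, 16 and 21). Parental replicates 1 and 4 held at most 2 counts of each gene, against 0 to 8 in the knockout tumours, so the groups overlapped.

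The amplification loop itself moved in different directions. CFD, the protease that activates factor B, was at 3.78, 3.52, 1.65 and 2.68 CPM in parental replicates 1 to 4 and at 16.2, 8.43, 11.9 and 11.5 CPM in knockout replicates 1 to 4. It rose by a log2 change of 2.05 (SE 0.26, edgeR adjusted p = 0.000180), opposite in sign to CFB. Of 7 terminal-pathway genes only C5 passed the filter, and it was not called (0.48, adjusted p = 0.299). C9, the pore-forming subunit, had 2 to 13 counts in each parental tumour and none in any knockout tumour, where a count of 0 allows up to 3 in each. C8A and C8B had 0 counts in all 8 libraries, so transcripts of these subunits of the membrane attack complex were not detectable at this depth.

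Among the soluble regulators, C4BPB, a chain of C4b-binding protein, fell by 2.61 on the log2 scale (SE 0.35, edgeR adjusted p = 0.000263). C4BPA, the other chain, was at 39.4 CPM in parental replicate 3 and at 5.99 to 12.7 CPM in the other parental tumours, against 2.06 to 7.65 CPM in knockout tumours. Its log2 change was -1.87 (adjusted p = 0.0312). The call was lost without parental replicate 3 (-0.97, adjusted p = 0.0890), knockout replicate 1 (-1.62, 0.0837), 3 (-1.83, 0.0758) or 4 (-1.83, 0.0756), and by limma-voom (-1.61, 0.0758). With parental replicates 2 and 3 both left out the log2 change was -0.62 (0.237). CLU (clusterin), a chaperone that also binds the terminal complex, had the largest change among the genes of the list described here. It was at 2.78 to 6.72 CPM in parental and 66.4 to 118 CPM in knockout tumours, a log2 change of 4.09 (SE 0.28, adjusted p = 2.81e-06).

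Among 11 receptor genes, 7 were tested and the receptors for the C5a fragment split. C5AR2 was at 3.42 to 7.82 CPM in parental and 18.6 to 24.6 CPM in knockout tumours and rose (log2 change 1.99, edgeR adjusted p = 5.90e-05). C5AR1, the signalling receptor found mainly on myeloid cells, was at 0.777 to 3.35 CPM and 0.327 to 0.585 CPM and fell by 1.92 on the log2 scale (adjusted p = 0.00974). That call was lost with parental replicates 2 and 3 both left out (-0.94, 0.0735). ITGAX, the alpha chain of complement receptor 4, rose by 1.42 (adjusted p = 0.0237), a call lost without parental replicate 1 (1.32, 0.0665) or knockout replicate 2 (1.03, 0.0826). ITGAM and ITGB2 had log2 changes of -0.038 and 0.033 (adjusted p = 0.976 and 0.970).

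**Figure D4:**
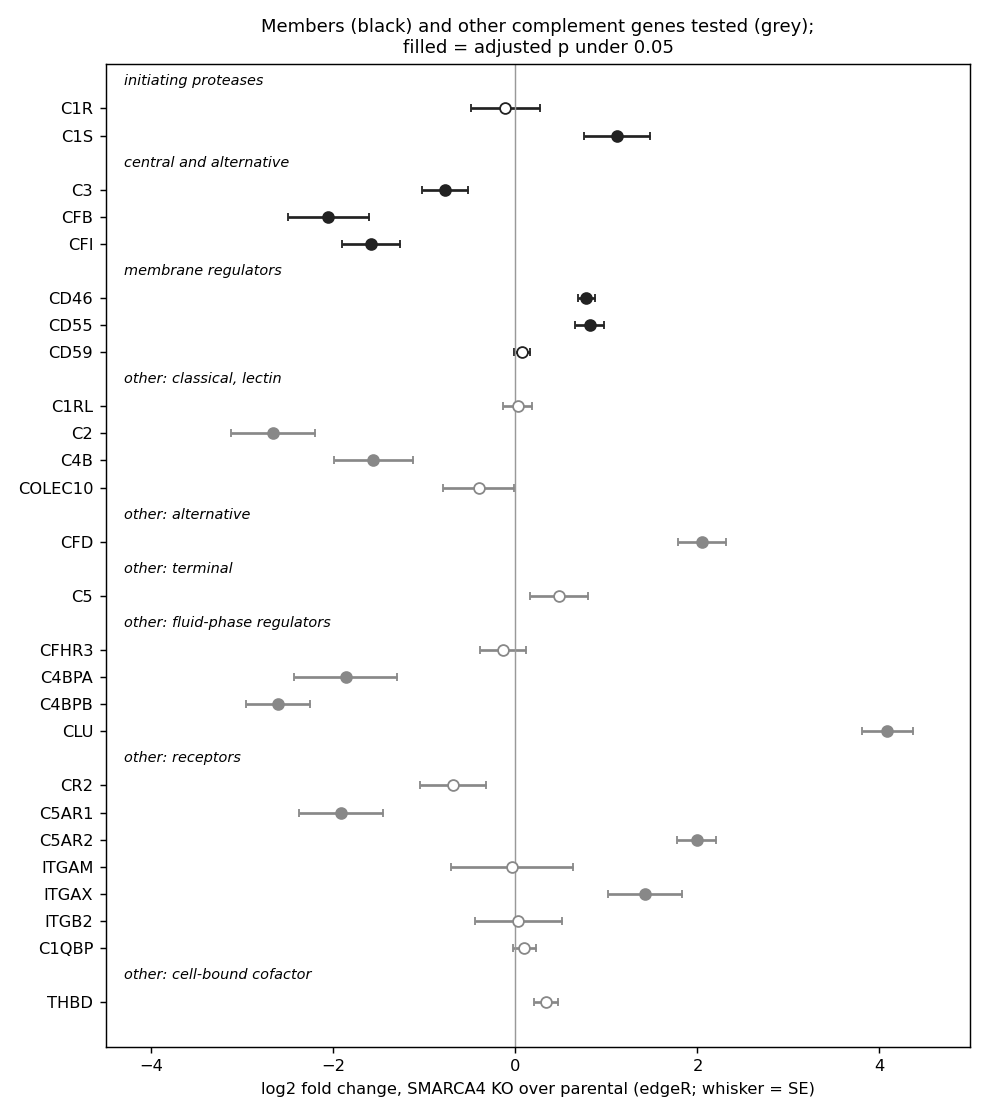
Points give the edgeR log2 change of knockout over parental tumours and whiskers its SE, for the 8 members tested (black) and 18 of the 19 other complement genes tested (grey); filled points have an adjusted p under 0.05. Filled points to the right of 0 are CD46, CD55, C1S, CFD, CLU, C5AR2 and ITGAX. Filled points to the left are C3, CFB, CFI, C2, C4B, C5AR1 and both C4b-binding protein genes.

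Signals and transcription factors that can induce complement genes were listed as well. All 19 were tested, with 6 called higher and 2 lower, against 13.0% and 14.1% of all genes tested, and a median log2 change of 0.25, against 0.0035. The cytokine gene IL6 was at 3.56 to 5.49 CPM in parental and 10.7 to 11.1 CPM in knockout tumours (log2 change 1.21, edgeR adjusted p = 0.000114). On the same scale IL1R1, the interleukin-1 receptor gene, rose by 1.02 (adjusted p = 0.000129) and IL1B by 1.14 (0.00121), while IL1A fell by 0.78 on the log2 scale (0.00317). IFNGR1 rose by 0.45 (0.0136). NFKB2 and RELB, partners in the non-canonical NF-kappaB dimer, had values of 0.52 and 0.47 (0.0406 and 0.0353). Both of these calls were lost without parental replicate 1, 3 or 4 or knockout replicate 1, 2 or 3, with values of 0.37 to 0.55 for NFKB2 and 0.37 to 0.46 for RELB. CEBPD had a log2 change of -0.46 (0.0376), and its call held only without parental replicate 2 or 4 among the fits that left out 1 tumour (largest adjusted p 0.104). It was also lost with upper-quartile scaling (-0.43, 0.0509) and with parental replicates 2 and 3 both left out (-0.38, 0.102). IRF1 (-0.56) and RELA (0.25) were not called (0.0812 and 0.0791).

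Markers of host cells were set beside the members. The 10 leukocyte markers summed to 17.9, 93.6, 78.9 and 11.8 CPM in parental replicates 1 to 4 and to 30.6, 35.8, 24.6 and 16.4 CPM in knockout replicates 1 to 4. None of the 10 was at 0 in every library, and none of the 8 tested was called by edgeR, DESeq2 or limma-voom (0 at an unadjusted edgeR p under 0.05). Of those 8, 6 had a negative and 2 a positive log2 change. Their median was -0.77, against 0.0035 over all genes tested, so the lack of a call does not show equal levels. C3, CFB, C1R, C1S and SERPING1 were all highest in parental replicate 2 or 3 among parental tumours, the tumours with the highest leukocyte sums. C3, CFB, C1R and C1S were also highest in knockout replicate 2, which had the highest sum of the knockout tumours. CFI shared that knockout peak (3.85 CPM), but its next value (3.69 CPM) came from replicate 4, which had the lowest sum. Among parental tumours CFI peaked in replicate 1 (9.79 CPM), whose sum was only 17.9 CPM. In that tumour C3 was close to its level in replicate 3 (1638 against 1776 CPM), though further below replicate 2 (2473 CPM). Likewise, its CFB was close to that of replicate 2 (10.7 against 12.9 CPM), though further below replicate 3 (23.4 CPM). At the low end, parental replicate 4 had the lowest parental sum. It also had the lowest parental C3, CFB, CFI, C1R and C1S (889, 3.91, 6.42, 5.57 and 12.3 CPM). Knockout replicate 4, with the lowest knockout sum, had the lowest knockout C3 (740 CPM) and CFB (2.33 CPM). CFI was lowest in knockout replicate 3, and C1R and C1S in knockout replicate 1, which had higher sums. CD46 was level across parental tumours, with 438 and 447 CPM in replicates 2 and 3 against 454 and 443 CPM in replicates 1 and 4. In knockout tumours CD46 ranked in the order of the leukocyte sum, from 652 CPM in replicate 4 through 751 in replicate 3 and 794 in replicate 1 to 856 in replicate 2. CD55 was at 331, 333, 278 and 252 CPM in parental replicates 1 to 4, highest in replicate 2 and lowest in replicate 4. In knockout replicates 1 to 4 CD55 was at 623, 605, 501 and 375 CPM, lowest in replicate 4 but highest in replicate 1. The part of leukocyte RNA in these results was not tested.

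With parental replicates 2 and 3 both left out, a choice made after the data were seen, 3 members were called higher and 2 lower. CFB still fell by 1.25 on the log2 scale (edgeR adjusted p = 0.0312) and CFI by 1.59 (0.00944), while C3 was no longer called (-0.36, 0.255). CD46 (0.76, 0.00130) and CD55 (0.84, 0.0107) kept their calls. C1S was at 1.88 (0.00263), and C1R turned to 0.81 (0.0654). Without these tumours the ratio of C1S to C1R was 2.15-fold higher after knockout (p = 0.0667 by an exact two-sided permutation test, the smallest that 2 against 4 tumours can give).

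**Figure D5:**
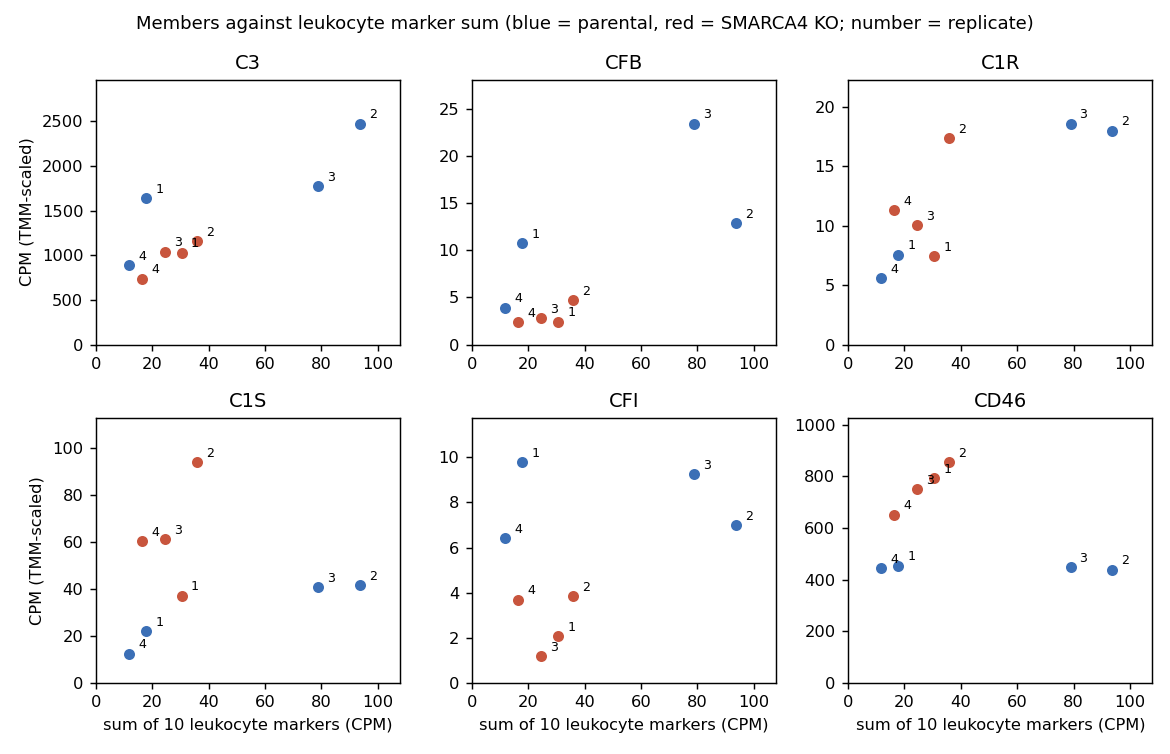
Each panel plots 1 member in TMM-scaled CPM against the summed CPM of 10 leukocyte markers, with each tumour as a numbered point (blue parental, red knockout). Parental replicates 2 and 3 lie far to the right at 93.6 and 78.9 CPM with high C3, CFB and C1R, while the parental points of CD46 are level and its knockout points rise from 652 to 856 CPM in the order of the sum.

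The 9 fibroblast markers summed to 351, 611, 349 and 181 CPM in parental replicates 1 to 4 and to 591, 345, 606 and 379 CPM in knockout replicates 1 to 4, mostly from COL1A1. The groups overlapped. Among parental tumours C1S was highest in replicate 2 and lowest in replicate 4, the tumours with the highest and the lowest fibroblast sum. Among knockout tumours it was highest in replicate 2, which had the lowest sum. LUM, the lumican gene of that list, was at 0.104 to 0.638 CPM in parental and 10.1 to 15.5 CPM in knockout tumours and rose (log2 change 5.00, edgeR adjusted p = 1.98e-06), while DCN and THY1 had 24 and 1 counts over all knockout libraries. The 6 endothelial markers summed to 7.35 to 18.0 CPM in parental and 8.68 to 15.3 CPM in knockout tumours, with VWF lower (-2.37, adjusted p = 0.000410). These sums came mostly from PECAM1, with means of 7.94 and 9.77 CPM, which was not called (0.30, adjusted p = 0.504). The other markers were not tested. CDH5 had 36 parental and 0 knockout counts, KDR 38 and 9, TEK 28 and 24, and CLDN5 2 and 4. The hepatocyte markers TTR and APOB were at 0 in all libraries. The 5 hepatocyte markers summed to 0.128 to 0.938 CPM in parental and 1.07 to 1.95 CPM in knockout tumours, without overlap. Most of this came from F2, with 36 parental and 112 knockout counts. F2 was not called (log2 change 1.65, edgeR adjusted p = 0.0597). The 6 skeletal muscle markers reached 24.7 CPM in parental replicate 2 and 12.1 CPM in knockout replicate 4, and the 4 erythroid markers at most 0.0893 CPM. The part of fibroblast, endothelial and muscle RNA in the members' values was not tested.

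For each called member, the tested genes with the nearest profile were found among 13045 genes. Nearness was the root mean square difference in log2 CPM over the 8 tumours, after each gene was centred on its own mean. CD46 was nearest to PC (0.077), GALNS (0.083) and DPY19L1 (0.091), and CD55 to CSGALNACT2 (0.10), NFIL3 (0.11) and OSMR (0.12), the oncostatin M receptor gene. C3 was nearest to CHST15, SERPINA1 and THEMIS2, each at 0.20. SERPINA1 encodes alpha-1 antitrypsin, an acute-phase protein as C3 is, but it was not called (log2 change -0.56, edgeR adjusted p = 0.0745). CFB was nearest to SLC17A9 (0.39), LCN2 (0.39) and COL9A2 (0.40), and CFI to TUSC1 (0.30), ARHGAP40 (0.35) and SCIN (0.36). C1S was nearest to ITGAX (0.34), JPH2 (0.35) and SLC11A1 (0.37). JPH2 and SLC11A1 were not called (edgeR adjusted p = 0.199 and 0.0559). The distances were smallest for CD46 and CD55, whose own profiles also varied least (0.40 and 0.47 around their means, against 0.54 for C3, 0.86 for C1S, 0.98 for CFI and 1.15 for CFB).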

How the data were processed

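RNA was sequenced from 8 xenograft tumours, and the authors deposited 1 unpooled file per tumour that holds raw counts of reads for each gene symbol. Per the submitters' processing notes, TopHat2 2.1.1, HTSeq 0.11.0 and hg38 were used. The annotation, strandedness, counting options and any removal of mouse reads are not given in the sources used here. The 5 summary lines were left out, and 79.1% to 85.2% of reads were assigned to genes.

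Counts were fitted with edgeR 4.0.16 in R 4.3.3 (filterByExpr with minimum count 10 and minimum total 15, TMM, quasi-likelihood F-test, no covariate, Benjamini-Hochberg adjustment over 16219 genes, threshold 0.05). The fit was tested on simulated data. DESeq2 1.42.0, limma-voom (limma 3.58.1), other scalings and filters, a replicate block and leaving out each tumour were alternatives. No libraries were duplicates (lowest chi-square per degree of freedom 8.21 over 28 pairs). Exon lengths and positions are from GENCODE 29. A planned comparison of protein sequences was not made.

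The members and lists were chosen with earlier results of these data known. Named genes were SMARCA4, the members, up to 6 called genes per list by smallest p, and the 3 nearest profiles per called member among genes with average log2 CPM of at least 1 (log2 CPM with a prior count of 2). Genes that this rule names and that are missing from the text are not reported here.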

Additional observations from a re-analysis of the deposited data

How the results depend on the processing

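Under the 8 other analyses of all 8 tumours, CFB, CFI, CD46 and CD55 kept direction and call, as did SMARCA4 (log2 fold change -3.04 to -2.98). The call for C1S was lost by DESeq2 (1.11) and that for C3 by limma-voom (-0.70); C1R turned sign by limma-voom (0.014). SERPING1 passed the threshold when every gene with a count was tested (-2.67, edgeR adjusted p = 0.0444). In that fit the other complement genes called lower rose from 6 to 12. The edgeR adjusted p of the members already called fell as well, for C3 from 0.0404 to 0.00220 and for CFB from 0.00562 to 1.03e-05. That of CD59 rose from 0.594 to 0.792. When 1 tumour was left out, log2 fold changes ran from 0.86 to 1.34 for C1S, -0.99 to -0.54 for C3 and -0.37 to 0.15 for C1R. With parental replicates 2 and 3 left out, C3 was at -0.36 and C1R at 0.81. Upper-quartile scaling moved all calls to 2383 higher and 2025 lower, from 2102 and 2283. The cause of these shifts was not tested.

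Replicate numbers were shared by title only. The title of parental replicate 4 also carries a serial number near those of the knockout tumours and apart from those of the other parental tumours. All parental serial numbers come before those of the knockout tumours, so serial order runs with genotype. In parental replicate 4, C3 (889 CPM) and CFB (3.91 CPM) lay inside the knockout ranges, while CFI, CD46 and CD55 (6.42, 443 and 252 CPM) lay outside them. What the serial numbers stand for is not stated, and the part of serial order in these results was not tested. Deviations of same-numbered tumours correlated at -0.043, -0.022, -0.19 and 0.086, so no pairing was assumed. With the replicate number as a block, 3 members were called higher and 3 lower, as without it, and all genes called numbered 1855 higher and 2016 lower. Depth limits SERPING1 and most terminal-pathway genes, which had too few counts for a test. In the values of SMARCA4 and the members no tumour stood apart from the other 3 of its group by Dixon's 95% criterion in 20 sets of 4. With 4 values this criterion flags only a gap that fills most of the range, so it cannot exclude the influence of single tumours.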
